A study of Mus musculus with 2 samples.

Results

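The 40 genes described here encode ligands, receptors, extracellular and intracellular antagonists of the transforming growth factor beta (TGF-beta) and bone morphogenetic protein (BMP) families, together with the Id genes that BMP signals commonly induce. They were chosen by gene symbol, and all 40 were found among the 28001 features of the count tables. The expression data were droplet single-cell transcriptomes of digit tips growing back after amputation, with 1 library from Lmx1bCreERT2;R26-LSL-TdT mice and 1 from PdgfraCreERT;R26-LSL-TdT mice. In both, a tamoxifen-activated Cre, driven by Lmx1b (a dorsal limb transcription factor) or by Pdgfra (a growth factor receptor of fibroblast-like cells), switches on the red fluorescent protein tdTomato at the Rosa26 locus. Cells descended from those that used the driver gene therefore carry tdTomato. Both groups shared the same treatment: tamoxifen was given at 3 mg a day over 4 days to mice 10 to 12 weeks old, digit tips were amputated 10 days after that, and tissue was taken 14 days after amputation. No sort for tdTomato was described, the number of animals in a library was not given, and no unamputated or Cre-negative tissue was analysed here. Line, animal and library cannot be told apart, so the values below carry no test between libraries, and each of the libraries is described on its own.

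Ligands of these families are secreted dimers that bring a type I and a type II receptor kinase together, and the type I kinase then phosphorylates Smad proteins that move to the nucleus. Broadly, BMP and GDF ligands act through Smad1, Smad5 and Smad9 and raise Id genes, and TGF-betas and activins act through Smad2 and Smad3. Noggin, chordin and follistatin bind ligands outside the cell, while Smad6 and Smad7 act as feedback inhibitors inside it. In the digit tip, BMPs are known for their part in bone regrowth and in nail and limb patterning.

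Counts of unique molecular identifiers (UMIs) were summed over all cells of a class and given as counts per 1000000 UMIs (CPM), with exact Poisson 95% intervals in parentheses and intervals of folds in brackets, both covering counting error only. Where Lmx1b or Pdgfra stands in parentheses or brackets beside a value, it names the library and not the gene. After filtering, the Lmx1b library held 2744 cells at a median of 17084 UMIs, and the Pdgfra library 2309 cells at a median of 9774 UMIs. Cell classes were gated by cluster and marker genes, so that "endothelial" and the like mean endothelial-like, and clusters were made without the 40 genes. The mesenchymal class, bone lineage included, held 985 cells (Lmx1b) and 585 cells (Pdgfra). The Lmx1b library also had 601 endothelial cells, 357 pericytes and smooth muscle cells (mural cells), 168 cartilage cells, 102 macrophages and monocytes, 34 Schwann cells, 29 osteoclasts and 22 T and NK cells. The Pdgfra library had 272 endothelial, 305 mural and 123 cartilage cells, 107 macrophages and monocytes, 97 Schwann cells, 51 osteoclasts and 31 T and NK cells. Epithelial cells (97) and neutrophils (21) reached the minimum of 20 cells in the Lmx1b library only. In each of these classes at most 1 marker on its own list was at 0. The 8 mesenchymal markers were as high in cartilage (summed, Lmx1b 122345 CPM, Pdgfra 98945 CPM) as in mesenchymal cells (Lmx1b 110881 CPM, Pdgfra 89185 CPM), so they do not separate these classes, and cartilage was gated by its own list. No named class could be given to 280 cells (Lmx1b) and 663 cells (Pdgfra). The median depth of mesenchymal cells was 25718 UMIs (Lmx1b) and 26881 UMIs (Pdgfra). That of T and NK cells, in which the share of cells with an Fst or Bmp2 UMI is read as background from free RNA, was 6848 UMIs (Lmx1b) and 5646 UMIs (Pdgfra). The libraries shared 10 barcodes, 1 of them among the cells kept.

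The members were spread over many classes, with mesenchymal and endothelial cells leading the largest numbers. A gene counted as measured where a class reached 5 CPM, which 35 (Lmx1b) and 36 (Pdgfra) members did, and its leading class was the one with the highest CPM. Mesenchymal cells led 13 of 35 members in the Lmx1b library (37.1%, against 4.31% of all measured genes) and 10 of 36 in the Pdgfra library (27.8%, against 5.41%). Endothelial cells led 8 of 35 (Lmx1b 22.9%, against 10.7%) and 8 of 36 (Pdgfra 22.2%, against 16.3%). The mesenchymal share lay above that of all genes in both libraries, and the endothelial share in the Lmx1b library. In the Pdgfra library the endothelial share was nearer to that of all genes and is not read as a result about the members. Schwann cells led 5 of 35 (Lmx1b 14.3%, against 19.3%) and 7 of 36 (Pdgfra 19.4%, against 20.5%), which is below or near the share of all genes and so no result about the members. Cartilage led 3 members in each library (Lmx1b 8.57%, against 4.94%, and Pdgfra 8.33%, against 6.28%). In the Lmx1b library T and NK cells led 2 members (5.71%, against 14.4%), macrophages 1 (2.86%, against 5.64%), mural cells 1 (2.86%, against 7.74%), epithelial cells 1 (2.86%, against 9.12%), neutrophils 1 (2.86%, against 13.1%) and osteoclasts 0 (against 10.9%). The Pdgfra library gave 3 to T and NK cells (8.33%, against 18.6%), 2 to macrophages (5.56%, against 9.17%), 3 to mural cells (8.33%, against 9.05%) and 0 to osteoclasts (against 14.7%). These shares are at or under those of all genes. The leading class was the same in both libraries for 28 of the 35 members measured in both (80%, against 54.6% of all genes). With cells gated by markers and no clusters it was the same for 18 members. The share of all genes was not computed under that gating, so this count cannot be set against a background.

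**Figure D1:**
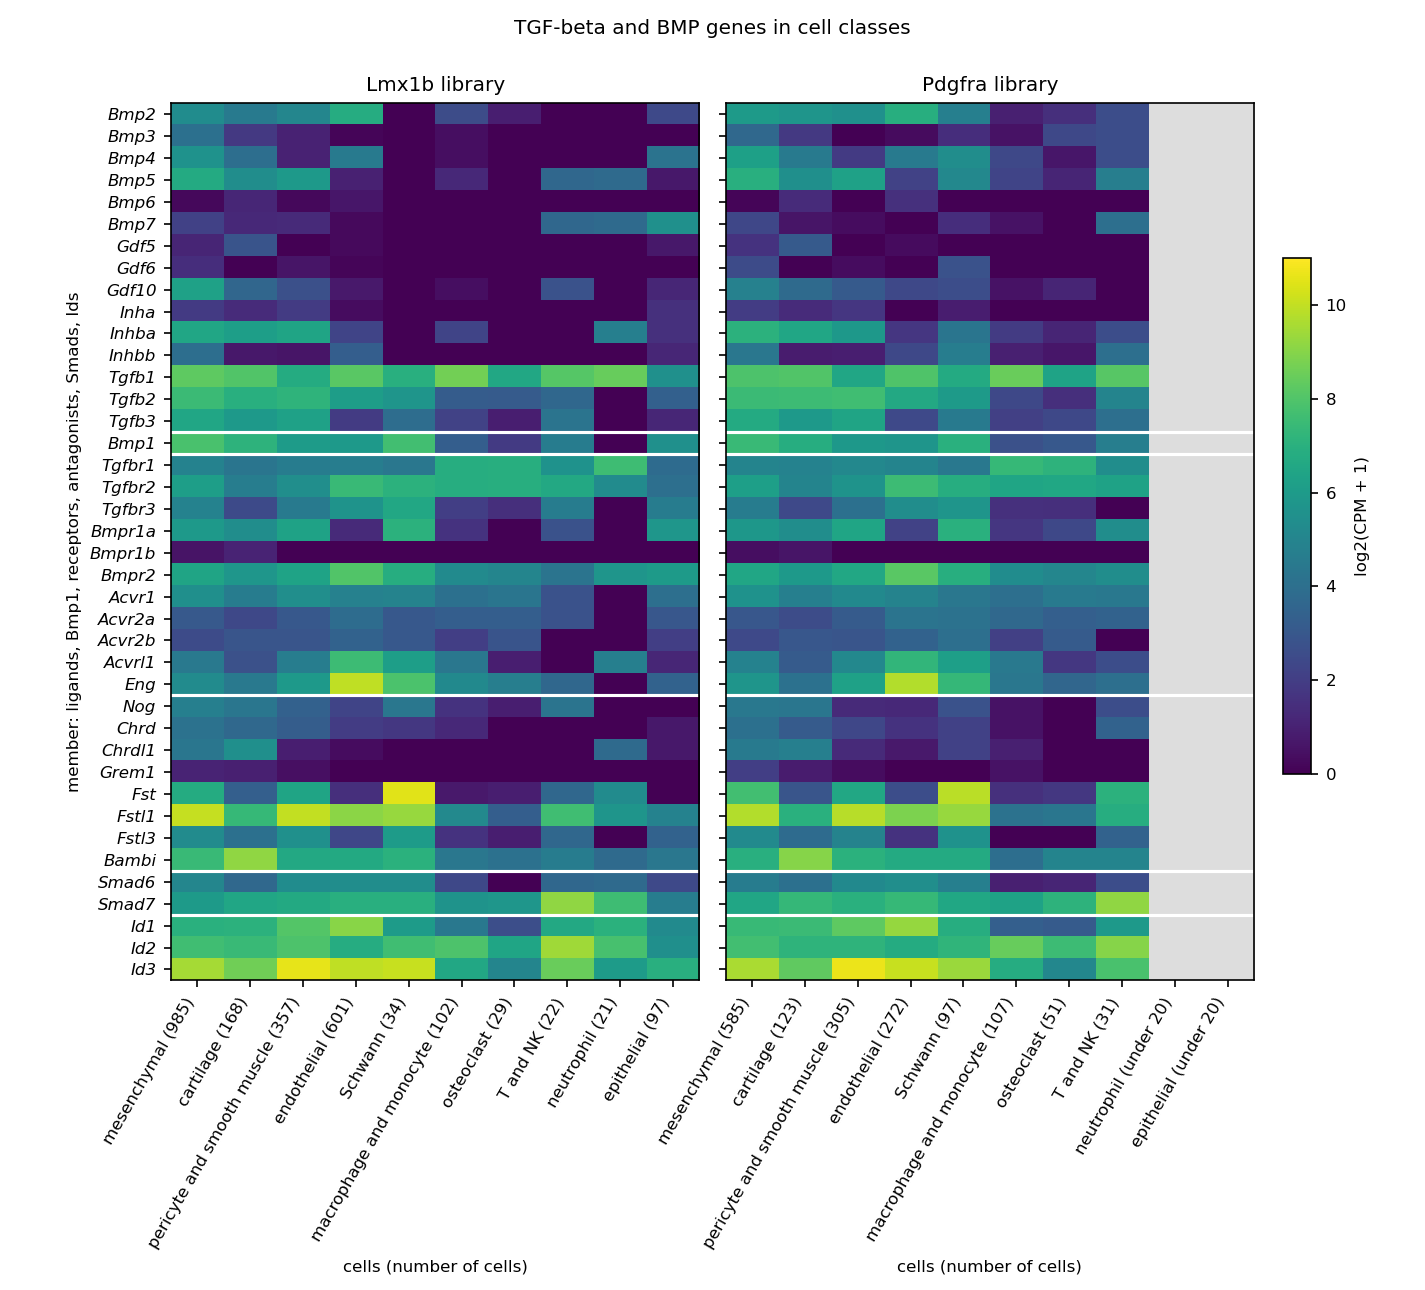
Summed level of each of the 40 genes, as log2(CPM + 1), by cell class (columns) in the Lmx1b library (left) and the Pdgfra library (right), with classes of fewer than 20 cells in grey. Mesenchymal columns are filled for most ligands, whereas Acvrl1 and Eng stand out in endothelial cells, Fst in Schwann cells and Bambi in cartilage.

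Among the ligands, mesenchymal cells held the highest levels of Bmp3, Bmp4, Bmp5, Gdf10, Inhba and Tgfb3 in both libraries. Bmp4, which acts in limb and nail patterning, reached 47.3 CPM (44.8 to 50) in mesenchymal cells of the Lmx1b library and 74.8 CPM (71.0 to 78.9) in those of the Pdgfra library. The next class was endothelium in the Lmx1b library, at 21.8 CPM (2.17-fold [1.88 to 2.52]), and Schwann cells in the Pdgfra library, at 41.4 CPM (1.81-fold [1.36 to 2.46]). Schwann cells of the Lmx1b library gave 0 Bmp4 UMIs, which allows up to 7.23 CPM, so the libraries differ in that class. Bmp5, a skeletal BMP, was at 105 CPM (Lmx1b, 102 to 109) and 122 CPM (Pdgfra, 117 to 127) in mesenchymal cells, ahead of mural cells by 1.76-fold [Lmx1b, 1.57 to 1.98] and 1.57-fold [Pdgfra, 1.38 to 1.79]. With 1000 genes and 5% mitochondrial UMIs as limits the log2 difference was -0.99 (Lmx1b), so that mural cells were ahead. Gdf10, a relative of Bmp3, was at 77.3 CPM (Lmx1b, 74.1 to 80.7) and 27.3 CPM (Pdgfra, 25 to 29.8), ahead of cartilage by 6.74-fold [Lmx1b, 5.33 to 8.65] and 2.11-fold [Pdgfra, 1.57 to 2.88]. With cells gated by markers and no clusters the log2 difference was -0.40 (Pdgfra), so that cartilage was ahead. Its mesenchymal lead was thus wider in the Lmx1b library. Bmp3, which opposes osteogenic BMPs, was low, at 15.5 CPM (Lmx1b, 14.1 to 17.1) and 12.3 CPM (Pdgfra, 10.8 to 14.0). It was 6.09-fold [3.71 to 10.8] over cartilage in the Lmx1b library. In the other library the next class was T and NK cells, with a fold of 2.44-fold [0.434 to 96.9], an interval that includes 1.

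Inhba, the subunit of activin A, was also read outside the mesenchyme, at 90.9 CPM (Lmx1b) and 135 CPM (Pdgfra) in mesenchymal cells, 83.7 CPM (Lmx1b) and 57.5 CPM (Pdgfra) in mural cells and 70.2 CPM (Lmx1b) and 90.0 CPM (Pdgfra) in cartilage. Endothelial cells held 3.82 CPM (Lmx1b) and 2.33 CPM (Pdgfra) of it. Tgfb3 also led there, with 90.5 CPM (Lmx1b) and 103 CPM (Pdgfra) in mesenchymal cells, 76.8 CPM (Lmx1b) and 83.8 CPM (Pdgfra) in mural cells and 59.4 CPM (Lmx1b) and 59.4 CPM (Pdgfra) in cartilage, against 2.71 CPM (Lmx1b) and 4.43 CPM (Pdgfra) in endothelium. These ligands were therefore shared by mesenchymal, mural and cartilage cells, with little in endothelium. Tgfb2 lay between 122 and 182 CPM across those 3 classes in the Lmx1b library, and between 181 and 195 CPM in the Pdgfra library, and its leading class differed between them. Inhbb, the activin B subunit, was led by mesenchymal cells in the Lmx1b library (14.6 CPM) and by Schwann cells in the Pdgfra library (24.5 CPM). Tgfb1, the TGF-beta that immune cells commonly make, was broad, at 398 CPM (Lmx1b, 375 to 421) and 360.5 CPM (Pdgfra, 336 to 387) in macrophages and at 309 CPM (Lmx1b) and 241 CPM (Pdgfra) in mesenchymal cells. Its lowest class was epithelial cells in the Lmx1b library (44.9 CPM) and osteoclasts in the Pdgfra library (81.5 CPM).

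Bmp2, an osteogenic BMP, was the ligand with an endothelial lead among whole classes. It reached 112 CPM (Lmx1b, 106 to 119) and 118 CPM (Pdgfra, 108 to 129) in endothelial cells, against 40.1 CPM (Lmx1b) and 62.1 CPM (Pdgfra) in mesenchymal cells (2.80-fold [Lmx1b, 2.57 to 3.04] and 1.90-fold [Pdgfra, 1.71 to 2.11]). A mesenchymal cluster led by Sfrp2 and Cyp2f2, described below, was above the endothelial class, at 248 CPM (Lmx1b) and 266 CPM (Pdgfra). A Bmp2 UMI was present in 31.1% (Lmx1b) and 34.9% (Pdgfra) of endothelial cells (median depth Lmx1b 12554, Pdgfra 11699 UMIs) and in 0 of 22 (Lmx1b, interval up to 15.4%) and 1 of 31 T and NK cells (Pdgfra, up to 16.7%). The summed mesenchymal markers in endothelial cells were 1436 CPM (Lmx1b) and 2026 CPM (Pdgfra), against 110881 CPM (Lmx1b) and 89185 CPM (Pdgfra) in mesenchymal cells. Within endothelium, the cluster led by Gja4 and Sema3g, genes of arterial cells, held 178 CPM (Lmx1b, 151 to 209.7) and 378 CPM (Pdgfra, 322 to 439.6), and the cluster led by Selp and Vwf, genes of venous cells, 178 CPM (Lmx1b, 162 to 194) and 134 CPM (Pdgfra, 112 to 159.5). The cluster led by Gpihbp1, a gene of capillaries, held 56.7 CPM (Lmx1b, 50.1 to 63.9) and 73.9 CPM (Pdgfra, 63.5 to 85.6), the lowest of these 3 in both libraries. Bmp4 was likewise lower in the Gpihbp1 cluster (Lmx1b 10.4 CPM, Pdgfra 8.26 CPM) than in the Selp and Vwf cluster (Lmx1b 42.7 CPM, Pdgfra 55.8 CPM). Tgfb2 was highest in the Gja4 and Sema3g cluster, at 166 CPM (Lmx1b) and 400.4 CPM (Pdgfra), against 35.1 CPM (Lmx1b) and 24.8 CPM (Pdgfra) in the Selp and Vwf cluster.

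The remaining ligands were sparse. Gdf5, a joint-forming factor, was led by cartilage at 6.21 CPM (Lmx1b, 4.42 to 8.49) and 7.78 CPM (Pdgfra, 5.25 to 11.1), ahead of mesenchymal cells by 5.17-fold [Lmx1b, 3.17 to 8.48] and 3.75-fold [Pdgfra, 2.25 to 6.20]. Bmp7, known from kidney, eye and limb development, was highest in epithelial cells of the Lmx1b library, at 44.3 CPM (34.5 to 56.0), while mesenchymal cells held 3.39 CPM (Lmx1b) and 4.04 CPM (Pdgfra). Its highest value among the named classes of the Pdgfra library, with no epithelial class of 20 cells, was 15.2 CPM in T and NK cells, which rests on 3 UMIs. Clusters described below were higher in that library, a mesenchymal one led by Sfrp2 and Cyp2f2 (29.0 CPM) and an unnamed one led by Krt42. Gdf6, a joint and skull factor, reached at most 1.75 CPM (Lmx1b) and 5.91 CPM (Pdgfra). Bmp6, an iron-regulating BMP of endothelial cells, and Inha, the inhibin alpha subunit, stayed under 5 CPM in every class of both libraries. Bmp1, a protease that trims procollagens and cleaves chordin, was highest in mesenchymal cells at 229.8 CPM (Lmx1b) and 174 CPM (Pdgfra), with Schwann cells next at 205 CPM (Lmx1b) and 126 CPM (Pdgfra).

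The receptors separated endothelium from the other classes. Acvrl1, the endothelial type I receptor, was at 184 CPM (Lmx1b, 176 to 193) and 149.5 CPM (Pdgfra, 138 to 162) in endothelial cells, ahead of Schwann cells by 2.63-fold [Lmx1b, 1.83 to 3.94] and 2.06-fold [Pdgfra, 1.64 to 2.61]. Eng, the co-receptor endoglin, was at 981 CPM (Lmx1b, 962 to 1001) and 858 CPM (Pdgfra, 831 to 886), ahead of Schwann cells by 4.20-fold [Lmx1b, 3.44 to 5.18] and 5.46-fold [Pdgfra, 4.71 to 6.37]. Bmpr2, the BMP type II receptor, was at 254 CPM (Lmx1b, 244 to 264) and 289.5 CPM (Pdgfra, 274 to 306), again ahead of Schwann cells by 2.19-fold [Lmx1b, 1.65 to 2.98] and 2.45-fold [Pdgfra, 2.05 to 2.94]. Bmpr1a, the widespread BMP type I receptor, was low in endothelium and highest in Schwann cells. Endothelial cells held 1.51 CPM (Lmx1b, 0.844 to 2.49) and 3.50 CPM (Pdgfra, 1.96 to 5.77) of Bmpr1a, against 133 CPM (Lmx1b) and 127 CPM (Pdgfra) in Schwann cells, 79.5 CPM (Lmx1b) and 88.2 CPM (Pdgfra) in mural cells and 61.5 CPM (Lmx1b) and 56.4 CPM (Pdgfra) in mesenchymal cells. Macrophages were as low, at 2.08 CPM (Lmx1b) and 2.35 CPM (Pdgfra), as were osteoclasts, at 0 CPM (Lmx1b, which allows up to 2.66 CPM) and 4.23 CPM (Pdgfra). Bmpr1b, the other BMP type I receptor, did not reach 5 CPM in any class. Endothelium thus differed, high in Acvrl1 and low in Bmpr1a, from mesenchymal and mural cells, low in Acvrl1 and high in Bmpr1a, in both libraries.

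Of the TGF-beta receptors, Tgfbr2, the type II receptor, was highest in endothelial cells (Lmx1b 173 CPM, Pdgfra 188 CPM), with Schwann cells (Lmx1b 133 CPM, Pdgfra 115 CPM) and osteoclasts (Lmx1b 117 CPM, Pdgfra 91.8 CPM) next. Tgfbr1, its type I partner, was instead highest in myeloid cells, at 116 CPM (Lmx1b, 104 to 129) and 162 CPM (Pdgfra, 145 to 180.0) in macrophages and 119 CPM (Lmx1b, 99.7 to 141) and 136 CPM (Pdgfra, 119 to 156) in osteoclasts. The 21 neutrophils of the Lmx1b library, with 15 Tgfbr1 UMIs, gave 193 CPM (108 to 319), and every other class was at or under 47.1 CPM. The type II and type I genes thus had different leading classes. Tgfbr3, the co-receptor betaglycan, was highest in Schwann cells (Lmx1b 96.4 CPM, Pdgfra 52.4 CPM) and next in endothelium (Lmx1b 49.1 CPM, Pdgfra 41.5 CPM). Acvr1, a BMP and activin type I receptor, was close in mesenchymal and mural cells, at 44.0 CPM (Lmx1b) and 48.1 CPM (Pdgfra) and 42.7 CPM (Lmx1b) and 36.6 CPM (Pdgfra). The activin type II receptors Acvr2a and Acvr2b were low everywhere, with at most 18 CPM for Acvr2a and 15.2 CPM for Acvr2b, both in the Pdgfra library.

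**Figure D2:**
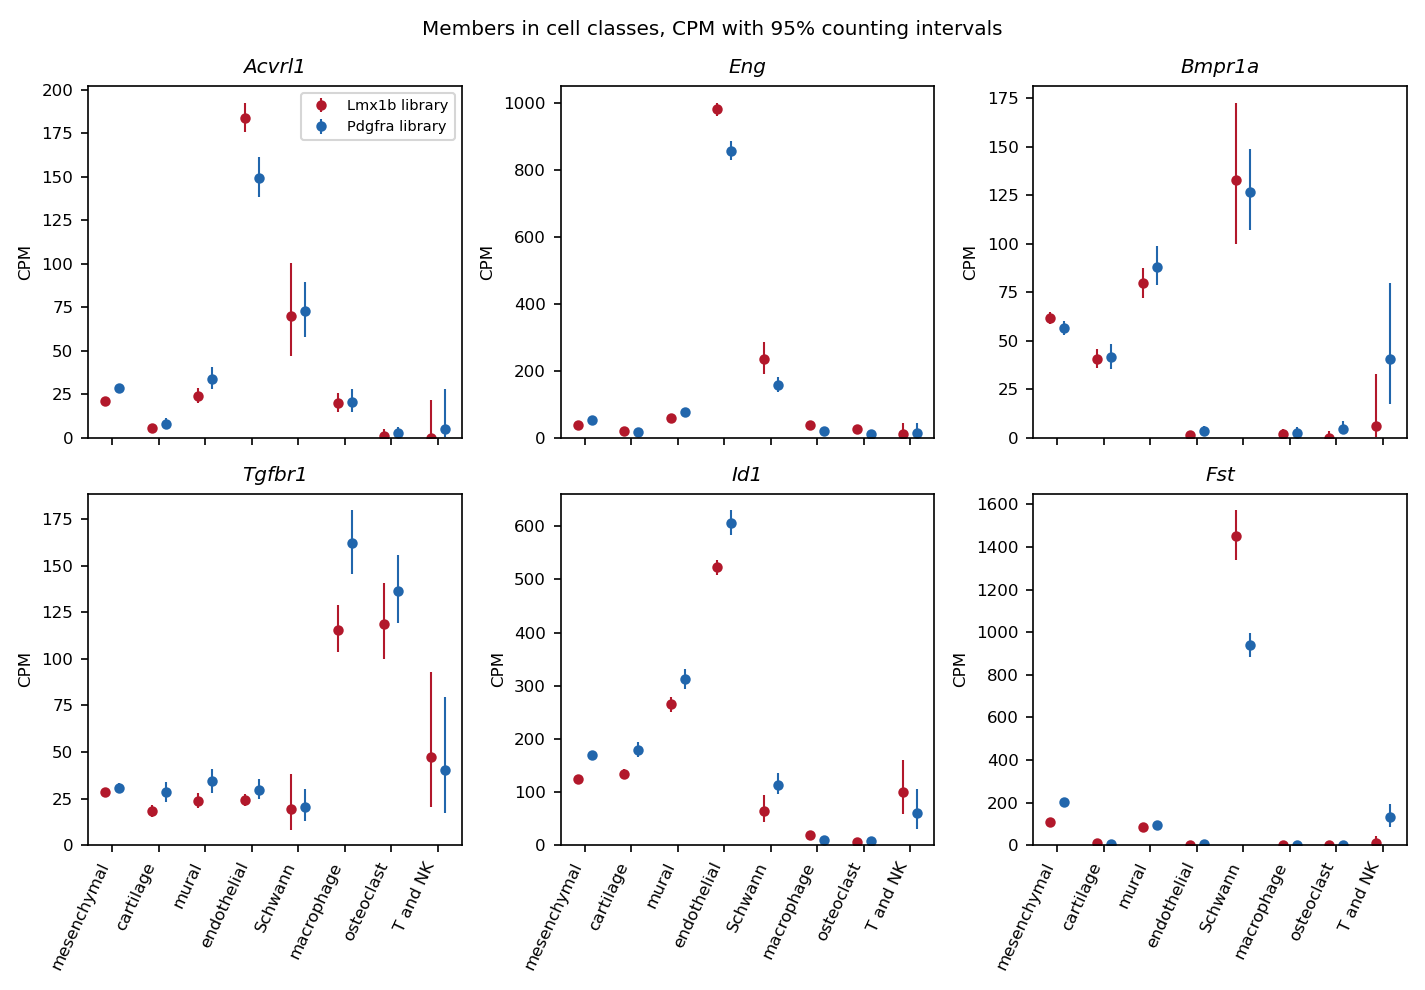
Summed CPM with exact Poisson 95% intervals of Acvrl1, Eng, Bmpr1a, Tgfbr1, Id1 and Fst in the 8 classes present in both libraries, the Lmx1b library left of the Pdgfra library in each pair. Acvrl1 and Eng peak in endothelial cells where Bmpr1a is near 0, Tgfbr1 peaks in macrophages and osteoclasts, and Fst in Schwann cells.

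The antagonists had separate sources. Fst encodes follistatin, which binds activins and some BMPs, and Schwann cells held 1451 CPM (Lmx1b, 1338 to 1572) and 939.9 CPM (Pdgfra, 886 to 997) of it. Mesenchymal cells as a whole came next at 107 CPM (Lmx1b) and 204 CPM (Pdgfra), so that Schwann cells were 13.6-fold [Lmx1b, 12.4 to 14.8] and 4.62-fold [Pdgfra, 4.31 to 4.93] over them, and cartilage held 8.92 CPM (Lmx1b) and 6.49 CPM (Pdgfra). The lead is over the pooled class only. A mesenchymal cluster led by Sfrp2 and Cyp2f2, described below, held 1491 CPM (Lmx1b) and 1357 CPM (Pdgfra). That is near the Schwann value in the Lmx1b library and above it in the Pdgfra library. An Fst UMI was present in 97.1% (Lmx1b) and 84.5% (Pdgfra) of Schwann cells (median depth Lmx1b 8472, Pdgfra 10184 UMIs) and in 9.09% (Lmx1b) and 9.68% (Pdgfra) of T and NK cells. The summed mesenchymal markers in Schwann cells were 8254 CPM (Lmx1b) and 14529 CPM (Pdgfra). Bambi, a pseudoreceptor without a kinase, was among whole classes highest in cartilage at 569 CPM (Lmx1b, 550.1 to 588) and 507 CPM (Pdgfra, 485 to 530.0), ahead of mesenchymal cells in the Lmx1b library (3.30-fold [3.16 to 3.44]) and of mural cells in the Pdgfra library (3.90-fold [3.51 to 4.33]). An osteoblast-like cluster of the mesenchyme with Dmp1 and Phex among its leading genes, described below, was higher, at 852 CPM (Lmx1b) and 649 CPM (Pdgfra). Chrdl1, a chordin-like BMP binder, was also led by cartilage (Lmx1b 43.5 CPM, Pdgfra 25.9 CPM), with mesenchymal cells at 19.0 CPM (Lmx1b) and 21.7 CPM (Pdgfra). Nog (noggin) and Chrd (chordin) were low and led by mesenchymal cells, Nog at 26 CPM (Lmx1b) and 20.2 CPM (Pdgfra) and Chrd at 16.8 CPM (Lmx1b) and 15.5 CPM (Pdgfra). Fstl1, a secreted glycoprotein that can bind BMP4, was at 1035 CPM (Lmx1b) and 838 CPM (Pdgfra) in mesenchymal and 1016 CPM (Lmx1b) and 904 CPM (Pdgfra) in mural cells, with intervals that meet in the Lmx1b library. Fstl3, a follistatin-like activin binder, was highest in Schwann cells (Lmx1b 65.1 CPM, Pdgfra 47.3 CPM). Grem1 (gremlin), a BMP antagonist of the limb bud, did not reach 5 CPM in any class of either library.

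Among the inhibitory Smads, Smad7, which blocks TGF-beta receptors, was highest in T and NK cells at 577 CPM (Lmx1b, 468 to 703) and 576 CPM (Pdgfra, 475 to 692), 2.98-fold [1.72 to 5.54] over neutrophils in the Lmx1b library and 3.52-fold [2.86 to 4.30] over endothelium in the Pdgfra library. Smad6, which preferentially blocks BMP signals, lay between 32.5 and 41.0 CPM in mesenchymal, mural, endothelial and Schwann cells of the Lmx1b library and between 23.4 and 42.9 CPM in those of the Pdgfra library. The Id genes encode helix-loop-helix proteins that block differentiation factors, and they read out BMP signals in many cells. Id1 was highest in endothelial cells, at 523 CPM (Lmx1b, 509 to 537) and 606 CPM (Pdgfra, 583 to 630.0), ahead of mural cells by 1.97-fold [Lmx1b, 1.86 to 2.09] and 1.94-fold [Pdgfra, 1.81 to 2.09]. Id3 was highest in mural cells, at 1549 CPM (Lmx1b, 1516 to 1583) and 1637 CPM (Pdgfra, 1594 to 1681). Macrophages and osteoclasts held little of either, Id1 at 20.1 CPM (Lmx1b) and 8.92 CPM (Pdgfra) in macrophages and 5.33 CPM (Lmx1b) and 7.85 CPM (Pdgfra) in osteoclasts. Id2, which is also a lymphoid factor, was led by T and NK cells at 695 CPM (Lmx1b, 575 to 832) and 515 CPM (Pdgfra, 420.1 to 625). Within mural cells, the cluster led by Il6, Cxcl1 and Rgs16 held 521 CPM (Lmx1b, 465 to 582) and 667 CPM (Pdgfra, 618 to 719.5) of Id1, against 166 CPM (Lmx1b, 153 to 179) and 161 CPM (Pdgfra, 144 to 178) in the contractile cluster led by Actg2 and Tagln. Id3 was at 2323 CPM (Lmx1b) and 2405 CPM (Pdgfra) in the Il6 cluster, against 1277 CPM (Lmx1b) and 1274 CPM (Pdgfra) in the Actg2 cluster. Il6 and Cxcl1 are genes that tissue dissociation can raise, and their part in the Id values was not tested. A further mural cluster, led by Kcnk3 and Enpep and present with enough cells in the Lmx1b library only (55 cells), held 534 CPM of Id1, 2298 CPM of Id3, 198 CPM of Inhba and 52.6 CPM of Nog, against 67.9 CPM of Inhba and 1.60 CPM of Nog in the Actg2 cluster.

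In cartilage of the Pdgfra library a cluster of 47 cells led by Lect1 and Matn1, at a median of 3511 UMIs, differed from the main cartilage cluster. The Lmx1b library had 0 such cells. Gm10260 and Igf2 were also among its leading genes, as in an unnamed cluster with 97 of its 98 cells in the Pdgfra library. The Lect1 and Matn1 cluster held 500.4 CPM (398 to 621) of Bmp2, against 32.2 CPM (26.7 to 38.6) in the main cartilage cluster of the same library. Bambi was lower there, at 73.2 CPM (37.8 to 128), against 526 CPM (503 to 550.2). With this cluster and a mural cluster of low depth left out, an alternative chosen after seeing the data, mesenchymal cells still led 13 (Lmx1b) and 10 members (Pdgfra), endothelial cells 8 in each library, and 28 members had the same leading class.

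The mesenchyme was divided into 10 clusters, again without the 40 genes. They comprised a cycling-like cluster, a tendon-like cluster, an osteoblast precursor-like cluster led by C1qtnf3, and osteoblast-like clusters led by Bglap and by Dmp1 and Phex. Marker lists of subtypes were scored by their mean log2 level over the median cluster. A cluster led by Sfrp2 and Cyp2f2 matched nail-associated mesenchyme (score 5.47) and is called nail-associated-like. A cluster with Igfbp2 and Gldn among its leading genes also matched that list best (2.22), with the Mest and Gldn list close (2.02). That cluster and the rest are called by leading genes: Igfbp2 and Gldn, Angpt2 and Fmo2, Mest and Ptn, and A2m and Mmp13. The Mest and Ptn cluster also had Flt1, Emcn and other endothelial genes among its leaders. The A2m and Mmp13 cluster had 111 cells in the Lmx1b library but 12 in the Pdgfra library, under the minimum of 20, and was read in the Lmx1b library only. The nail-associated-like cluster, with 42 cells (Lmx1b) at a median of 21036 UMIs and 115 cells (Pdgfra) at 15694 UMIs, led the most members. It was highest for 13 of the 36 members measured over clusters in the Lmx1b library (36.1%, against 25.3% of all measured genes) and for 15 of 38 in the Pdgfra library (39.5%, against 25.5%). The A2m and Mmp13 cluster led 6 of 36 (16.7%, against 19.2%), a share no higher than that of all genes. The leading cluster was the same in both libraries for 16 of 36 members (44.4%, against 40.6%), which is near the share of all genes. In 24 of the 36 members the highest cluster was at least 4-fold the lowest in both libraries, whereas 35.6% of all genes did so.

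**Figure D3:**
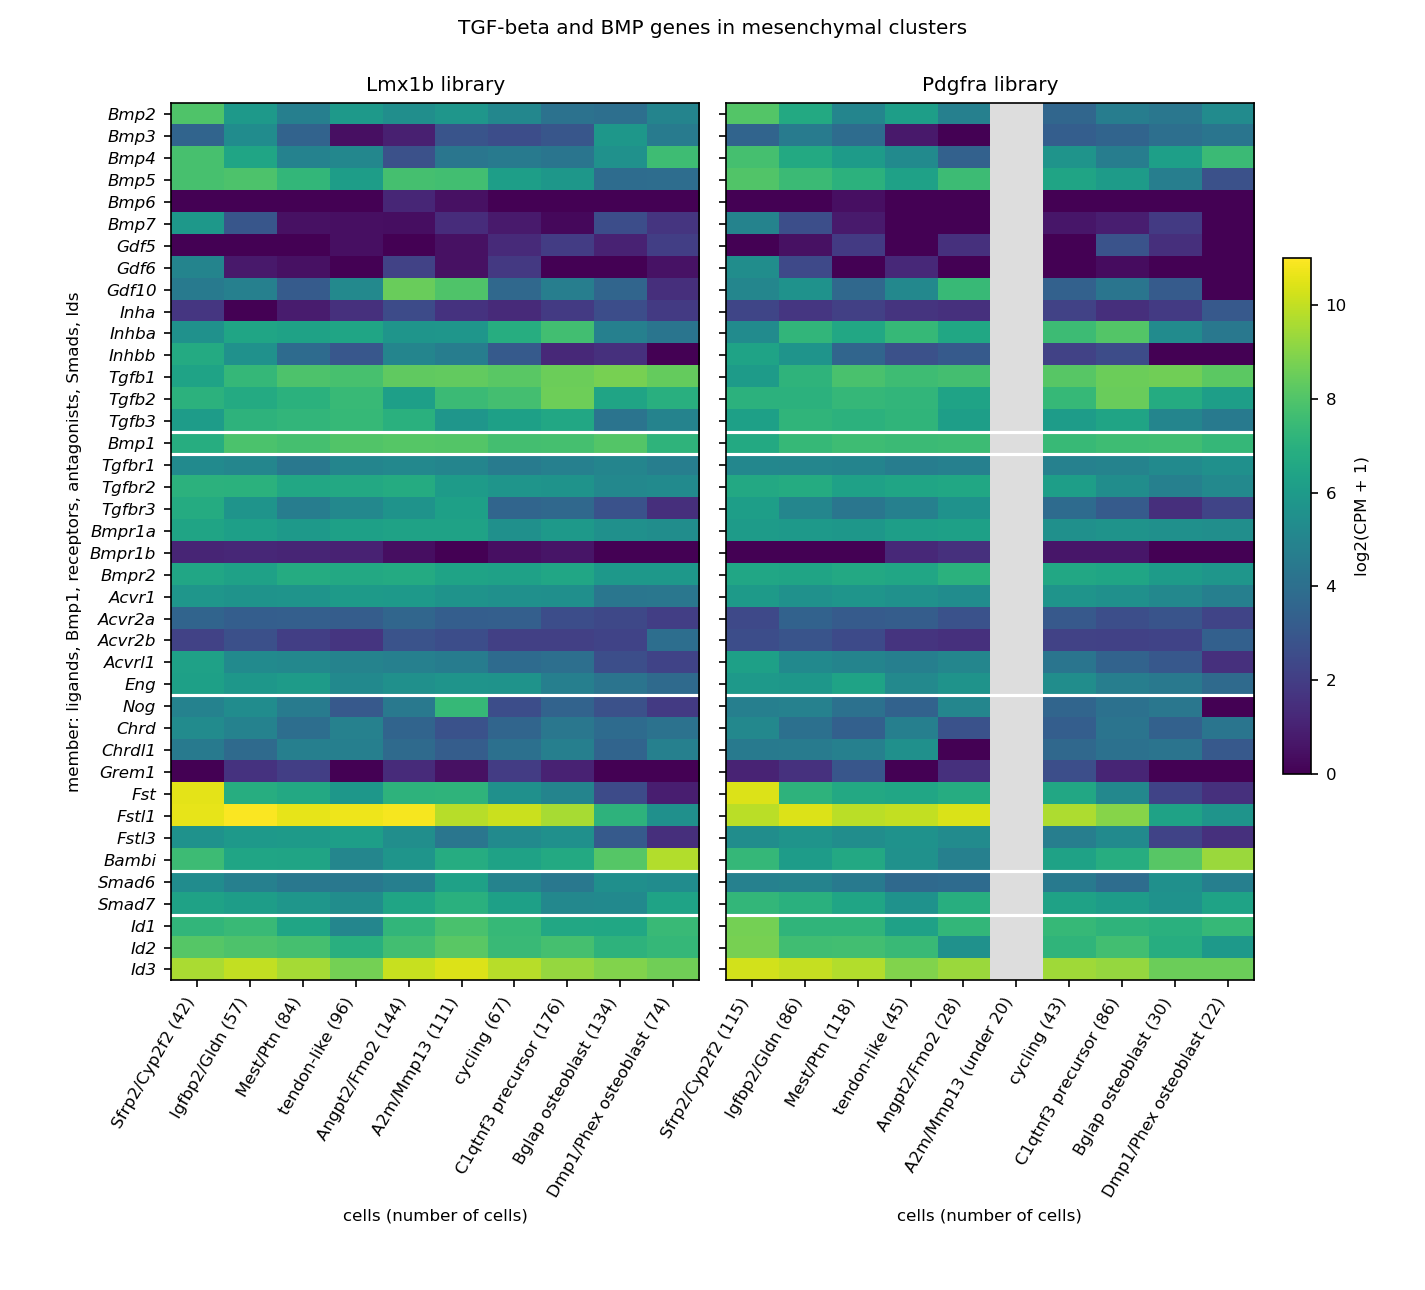
Summed level of each of the 40 genes, as log2(CPM + 1), in the 10 mesenchymal clusters of the Lmx1b library (left) and the Pdgfra library (right), with the cluster of fewer than 20 cells in grey. Fst, Bmp2, Bmp7 and Gdf6 are highest in the nail-associated-like cluster, and Bambi in the Dmp1 and Phex osteoblast-like cluster.

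Follistatin and several BMP ligands shared the nail-associated-like cluster. Fst reached 1491 CPM (Lmx1b, 1410.0 to 1576) and 1357 CPM (Pdgfra, 1304 to 1412) there, 10.5-fold [Lmx1b, 9.27 to 11.8] and 9.92-fold [Pdgfra, 8.86 to 11.1] over the next cluster, while the Dmp1 and Phex cluster held 0.901 CPM (Lmx1b) and 1.86 CPM (Pdgfra). Bmp2 was at 248 CPM (Lmx1b, 216 to 284) and 266 CPM (Pdgfra, 242 to 291) in the nail-associated-like cluster, 4.04-fold [Lmx1b, 3.14 to 5.22] and 2.64-fold [Pdgfra, 2.26 to 3.08] over the Igfbp2 and Gldn cluster. Bmp7 was at 57.7 CPM (Lmx1b, 42.7 to 76.2) and 29.0 CPM (Pdgfra, 21.6 to 38.0), 8.53-fold [Lmx1b, 4.27 to 18.9] and 5.62-fold [Pdgfra, 3.02 to 11.2] over the next cluster. Gdf6, near the floor over whole classes, reached 30.6 CPM (Lmx1b, 20.0 to 44.8) and 41.2 CPM (Pdgfra, 32.4 to 51.8) in this cluster, 8.81-fold [Lmx1b, 4.21 to 19.8] and 9.45-fold [Pdgfra, 4.99 to 19.8] over the next. Of the mesenchymal Bmp7 UMIs, 49 of 93 (Lmx1b) and 52 of 76 (Pdgfra) came from this cluster, as did 26 of 48 (Lmx1b) and 74 of 88 (Pdgfra) of the Gdf6 UMIs, the larger part each time. Inhbb was at 104 CPM (Lmx1b) and 81.3 CPM (Pdgfra) (2.25-fold [Lmx1b, 1.62 to 3.14] and 1.62-fold [Pdgfra, 1.26 to 2.07] over the next cluster). Acvrl1 was at 76.5 CPM (Lmx1b) and 75.8 CPM (Pdgfra) (2.06-fold [Lmx1b, 1.41 to 3.00] and 2.10-fold [Pdgfra, 1.60 to 2.77]), and Tgfbr3 at 108 CPM (Lmx1b) and 71.3 CPM (Pdgfra). Tgfb1 had its lowest value in the same cluster, 81.2 CPM (Lmx1b, 63.2 to 103) and 65.2 CPM (Pdgfra, 53.9 to 78.1), against 423 CPM (Lmx1b, 403 to 445) and 390.2 CPM (Pdgfra, 354 to 428) in the Bglap cluster. An Fst UMI was present in 92.9% (Lmx1b) and 80.9% (Pdgfra) of the cells of the nail-associated-like cluster, and thinned to 5000 UMIs a cell in 85% of the 40 cells deep enough (Lmx1b) and 80% of 95 (Pdgfra). UMIs of Fst and of Bmp2, Bmp4 or Bmp7 were present together in 35 of 42 cells (Lmx1b, 83.3%, 95% interval 68.6 to 93) and 87 of 115 cells (Pdgfra, 75.7%, 95% interval 66.8 to 83.2). The product of the separate shares was 84.0% (Lmx1b) and 71.7% (Pdgfra), close to these values. Joint presence was also common in the Igfbp2 and Gldn cluster, at 66.7% (Lmx1b) and 53.5% (Pdgfra), and in the Mest and Ptn cluster, at 35.7% (Lmx1b) and 62.7% (Pdgfra). The products of the separate shares were close to these, at 66.2% (Lmx1b) and 52.7% (Pdgfra) and at 37.3% (Lmx1b) and 59.5% (Pdgfra). The Mest and Ptn cluster had endothelial genes among its leaders, and the part of endothelial RNA in its Bmp2 UMIs was not tested.

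**Figure D4:**
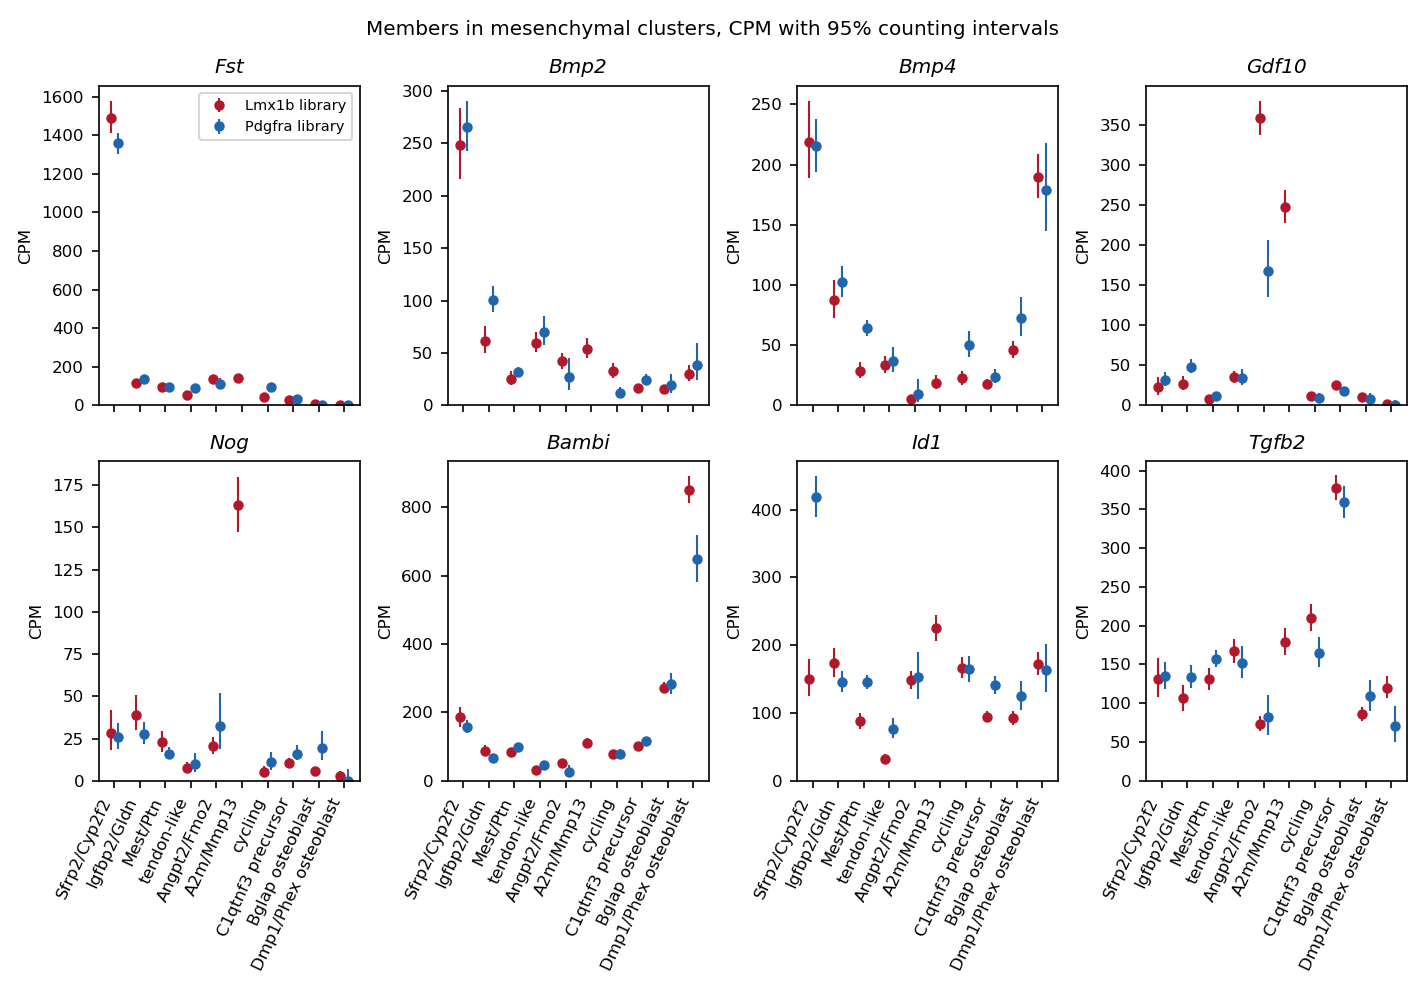
Summed CPM with exact Poisson 95% intervals of Fst, Bmp2, Bmp4, Gdf10, Nog, Bambi, Id1 and Tgfb2 over the mesenchymal clusters, the Lmx1b library left of the Pdgfra library in each pair. Fst and Bmp2 peak in the nail-associated-like cluster, and Bmp4 is high there and in the Dmp1 and Phex cluster. Gdf10 is high in the Angpt2 and Fmo2 cluster, and Nog in the A2m and Mmp13 cluster of the Lmx1b library.

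Bone-lineage clusters differed from one another. Bmp4 was high in the Dmp1 and Phex cluster, at 189.7 CPM (Lmx1b, 172 to 209) and 178 CPM (Pdgfra, 145 to 218), beside 219 CPM (Lmx1b) and 215 CPM (Pdgfra) in the nail-associated-like cluster, and the intervals of these clusters overlapped in both libraries. In the Bglap cluster it was at 45.8 CPM (Lmx1b) and 72.3 CPM (Pdgfra). Bambi was highest in the Dmp1 and Phex cluster, at 852 CPM (Lmx1b, 814 to 891) and 649 CPM (Pdgfra, 582 to 720.5), 3.12-fold [Lmx1b, 2.89 to 3.37] and 2.29-fold [Pdgfra, 1.96 to 2.67] over the Bglap cluster. Acvr2b was also highest there, at 14.9 CPM (Lmx1b) and 9.29 CPM (Pdgfra). The Pdgfra value rests on 5 UMIs, and its fold over the next cluster had an interval of 0.420 to 4.19, which includes 1. Osteoblast-like clusters thus carried Bambi with little Fst. Tgfb1 was highest in the Bglap cluster, at 423 CPM (Lmx1b) and 390 CPM (Pdgfra). The osteoblast precursor-like cluster was close, at 366 CPM (Lmx1b) and 365 CPM (Pdgfra). Inhba and Tgfb2 were highest in the osteoblast precursor-like cluster, Inhba at 204 CPM (Lmx1b, 193 to 216) and 267 CPM (Pdgfra, 249.8 to 285) and Tgfb2 at 378 CPM (Lmx1b, 362 to 395) and 359.6 CPM (Pdgfra, 339 to 381). The Bglap cluster held 26.6 CPM (Lmx1b) and 38.4 CPM (Pdgfra) of Inhba and 85.6 CPM (Lmx1b) and 109 CPM (Pdgfra) of Tgfb2. Fstl1 was lowest in the Dmp1 and Phex cluster (Lmx1b 45.1 CPM, Pdgfra 50.2 CPM) and highest in the Igfbp2 and Gldn cluster (Lmx1b 1939 CPM, Pdgfra 1371 CPM). Bmp3 was led by the Bglap cluster in the Lmx1b library (55.9 CPM) and by the Igfbp2 and Gldn cluster in the Pdgfra library (23.0 CPM). Inha, just over the floor in these clusters, reached 5.00 CPM in the Bglap cluster of the Lmx1b library and 7.44 CPM in the Dmp1 and Phex cluster of the Pdgfra library, too few UMIs to order clusters by.

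Fibroblast-like clusters held the other ligands. Gdf10 was highest in the Angpt2 and Fmo2 cluster, at 358 CPM (Lmx1b, 338 to 379.9) and 168 CPM (Pdgfra, 135 to 207), and in the Lmx1b library next in the A2m and Mmp13 cluster at 248 CPM. Its lowest value was 1.80 CPM (Lmx1b) and 0 CPM (Pdgfra, which allows up to 5.58 CPM) in the Dmp1 and Phex cluster. Bmp5 was high in several clusters, with 241 CPM (Lmx1b) and 179 CPM (Pdgfra) in the Igfbp2 and Gldn cluster and 221 CPM (Lmx1b) and 255 CPM (Pdgfra) in the nail-associated-like cluster, against 14.4 CPM (Lmx1b) and 5.58 CPM (Pdgfra) in the Dmp1 and Phex cluster. Tgfb3 was led by the tendon-like cluster in the Lmx1b library (163 CPM) and by the Igfbp2 and Gldn cluster in the Pdgfra library (147 CPM). Chrd was highest in the nail-associated-like cluster (Lmx1b 38.8 CPM, Pdgfra 34.0 CPM). Its folds over the next cluster had intervals that include 1 (Lmx1b 0.840 to 2.21, Pdgfra 0.854 to 2.02). Eng was highest in the nail-associated-like cluster in the Lmx1b library (74.2 CPM). In the Pdgfra library it was highest in the Mest and Ptn cluster (82.5 CPM), the cluster whose leading genes include endothelial ones. Fstl3 was highest in the tendon-like cluster in the Lmx1b library (71.0 CPM) and in the Igfbp2 and Gldn cluster in the Pdgfra library (50.4 CPM), and in both lowest in an osteoblast-like cluster.

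Noggin, the inhibitory Smads and the Id genes were high together in the A2m and Mmp13 cluster of the Lmx1b library. They were the 6 members that this cluster led, a share no higher than that of all genes (16.7%, against 19.2%). Nog was at 163 CPM (147 to 180.0) there, 4.16-fold [3.15 to 5.58] over the Igfbp2 and Gldn cluster. Smad6 was at 77.1 CPM (66.4 to 89.1), Smad7 at 126 CPM (112 to 140.5), Id1 at 225 CPM (207 to 245), Id2 at 289.8 CPM (269 to 312) and Id3 at 1357 CPM (1311 to 1405), each the highest of the 10 clusters in that library. For Id2 the interval overlapped that of the nail-associated-like cluster, 273 CPM (239 to 310.5). In the Pdgfra library, where the 12 cells of the A2m and Mmp13 cluster were not ranked, they gave 189.6 CPM of Nog and 306 CPM of Id1. Among the ranked clusters of that library, Smad7 and the Id genes were highest in the nail-associated-like cluster. Smad6 was highest in the Bglap cluster and Nog in the Angpt2 and Fmo2 cluster. The Id genes of the nail-associated-like cluster differed between libraries, Id1 at 151 CPM (Lmx1b, 126 to 179) and 419 CPM (Pdgfra, 389.5 to 450.0), Id2 at 273 CPM (Lmx1b) and 429.5 CPM (Pdgfra) and Id3 at 783 CPM (Lmx1b) and 1205 CPM (Pdgfra). The Lmx1b library was lower for all 3 genes, and Id1 there was 0.360-fold [0.296 to 0.434] that of the Pdgfra library. Over all 34 members measured in that cluster, 4 were at least 1.5-fold higher in the Lmx1b library (11.8%, against 12.9% of all genes) and 4 lower (11.8%, against 10.5%), which is near the background.

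BMP Smads are known to bind near inhibitory Smad and Id genes. Promoters are shown for 3 of these genes, Smad6, Id2 and Id3, highest together in the A2m and Mmp13 cluster of the Lmx1b library. They run from 250 bases before to 50 bases after the gene start, 5′ to 3′ along the gene, from a table of RefSeq promoters (GRCm38.p6) in which 25 of the 40 members were matched. Capitals mark the letters searched on both strands: GTCTAGAC, a palindromic Smad box, in Smad6, GGCGCC, a GC-rich BMP Smad box, in Id2, and CAGAC or its reverse GTCTG, the short Smad box, in Id3.
Smad6 (chr9:64022010-64022309, minus strand): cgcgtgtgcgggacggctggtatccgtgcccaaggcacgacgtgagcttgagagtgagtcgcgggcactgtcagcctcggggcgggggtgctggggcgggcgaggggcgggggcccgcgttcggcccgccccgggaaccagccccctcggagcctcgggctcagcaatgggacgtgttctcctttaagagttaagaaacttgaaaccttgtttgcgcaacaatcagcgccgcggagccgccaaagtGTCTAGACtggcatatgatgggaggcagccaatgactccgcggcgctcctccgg
Id2 (chr12:25096043-25096342, minus strand): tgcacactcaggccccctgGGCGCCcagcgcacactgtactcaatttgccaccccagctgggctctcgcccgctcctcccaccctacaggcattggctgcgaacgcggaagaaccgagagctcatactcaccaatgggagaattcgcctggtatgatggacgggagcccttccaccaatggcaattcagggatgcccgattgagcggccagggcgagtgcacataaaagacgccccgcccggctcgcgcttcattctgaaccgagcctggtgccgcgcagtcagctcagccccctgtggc
Id3 (chr4:136143572-136143871, plus strand): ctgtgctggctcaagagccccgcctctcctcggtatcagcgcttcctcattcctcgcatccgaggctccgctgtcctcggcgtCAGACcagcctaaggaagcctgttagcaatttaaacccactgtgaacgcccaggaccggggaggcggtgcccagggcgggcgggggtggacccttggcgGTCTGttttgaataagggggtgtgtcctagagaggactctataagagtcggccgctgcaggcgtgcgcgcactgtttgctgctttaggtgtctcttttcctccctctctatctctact
The Smad6 match starts 4 bases before the gene start (position -4), the Id2 match at position -231, and the Id3 matches at positions -167 and -68. GTCTAGAC was present in 0.213% of the 32851 promoters of that table and in 1 of the 25 members. A member counted if any of its promoters matched, so counts of members and shares of promoters are in unlike units. GGCGCC was present in 11.9% of all and in 7 of 25, and CAGAC in 49.6% of all and in 15 of 25. A match is a description of the letters and not a binding site, and the short box is too common to set these promoters apart.

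Labelled mesenchymal cells were then set against unlabelled ones within each library, a cell being labelled at 1600 CPM of tdTomato. The same limit labelled 0% (Lmx1b) and 16.1% (Pdgfra) of T and NK cells, 0% (Lmx1b) and 7.48% (Pdgfra) of macrophages, 0% (Lmx1b) and 28.7% (Pdgfra) of endothelial cells and 0.280% (Lmx1b) and 43.0% (Pdgfra) of mural cells. In the Pdgfra library cells of all 4 of these classes thus passed the limit. T and NK cells are the class read for background from free RNA. Of the unnamed cells of that library, at a median of 1794 UMIs, 30.6% passed it. Among the unnamed clusters, 1 led by haemoglobin genes, at a median of 1387 UMIs, had tdTomato among its leading genes. The part of free tdTomato RNA in these shares was not tested. In the Lmx1b library 68 mesenchymal cells were labelled, at a median of 24367 UMIs, and 917 were not, at 25929 UMIs. In the Pdgfra library 507 were labelled, at 27055 UMIs, and 78 were not, at 24804 UMIs. Of 32 members measured in the Lmx1b library, 11 were at least 1.5-fold higher in labelled cells (34.4%, against 12.7% of all measured genes) and 2 at least 1.5-fold lower (6.25%, against 10.5%). Of 32 in the Pdgfra library, 16 were higher (50%, against 21.1%) and 1 lower (3.13%, against 6.09%). The median difference of the members, on the log2(CPM + 1) scale, was 0.41 (Lmx1b) and 0.47 (Pdgfra), beside 0.08 (Lmx1b) and 0.19 (Pdgfra) over all genes. Counts with cells holding a Xist UMI left out, an alternative chosen after seeing the data, were 11 higher and 2 lower in the Lmx1b library and 13 higher and 1 lower in the Pdgfra library. Such UMIs were in 14 of the 68 labelled and 22 of the 917 unlabelled cells of the Lmx1b library, and in 0 of the 507 labelled and 7 of the 78 unlabelled cells of the Pdgfra library. Whether labelled and unlabelled cells came from the same animals is not known, and the part of this in the counts was not tested.

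Follistatin, activin B and BMP ligands were higher in labelled cells of both libraries when all clusters were summed. Labelled cells of the Lmx1b library held 682 CPM of Fst, against 71.5 CPM in unlabelled ones, and labelled cells of the Pdgfra library 227 CPM, against 43.1 CPM (5.25-fold [4.32 to 6.46]). For Inhbb, labelled cells held 64.4 CPM, against 11.6 CPM in unlabelled ones of the Lmx1b library (5.57-fold [4.41 to 7.0]), and 22.0 CPM, against 3.38 CPM in unlabelled ones of the Pdgfra library (6.51-fold [3.27 to 15.2]). Bmp2 was 2.80-fold [Lmx1b, 2.35 to 3.31] and 2.52-fold [Pdgfra, 1.96 to 3.31] in labelled over unlabelled cells, Bmp5 2.35-fold [Lmx1b, 2.10 to 2.63] and 2.68-fold [Pdgfra, 2.22 to 3.25], and the receptors Tgfbr3 2.38-fold [Lmx1b, 1.90 to 2.94] and 3.60-fold [Pdgfra, 2.22 to 6.23] and Acvrl1 2.48-fold [Lmx1b, 1.93 to 3.17] and 1.63-fold [Pdgfra, 1.19 to 2.29]. Eng (Lmx1b 1.76-fold, Pdgfra 1.66-fold), Tgfbr2 (Lmx1b 1.60-fold, Pdgfra 1.51-fold) and Chrd (Lmx1b 1.60-fold, Pdgfra 1.53-fold) were also past 1.5-fold in both libraries. All of these were higher in labelled cells of both lines as a whole. With the same mix of 3 clusters on both sides, described after these values, several were not: Bmp2 (0.855-fold), Chrd (0.923-fold) and Eng (0.994-fold) were under 1 in the Lmx1b library, and Inhbb (0.503-fold), Acvrl1 (0.704-fold), Tgfbr3 (0.776-fold), Fst (0.859-fold) and Tgfbr2 (0.944-fold) in the Pdgfra library. Past 1.5-fold higher in the Lmx1b library, and not in the Pdgfra library, were Bmp4 (2.23-fold [1.87 to 2.64]) and Bmp3 (1.65-fold [1.15 to 2.29]), while Tgfb1 was lower (0.612-fold [0.544 to 0.686]). Higher in the Pdgfra library, and not past 1.5-fold in the Lmx1b library, were Tgfb3 (3.03-fold [2.45 to 3.80]), Fstl3 (2.42-fold [1.75 to 3.43]), Fstl1 (2.17-fold [2.03 to 2.31]), Id2 (1.74-fold [1.54 to 1.96]), Id3 (1.53-fold [1.45 to 1.63]) and Chrdl1 (1.53-fold [1.08 to 2.23]), while Bambi was lower (0.395-fold [0.360 to 0.434]). These differences between the libraries were not tested. Gdf10 lay on opposite sides. Its level in labelled cells of the Lmx1b library was 8.84 CPM, against 81.5 CPM in unlabelled ones (0.108-fold [0.0592 to 0.182]). In labelled cells of the Pdgfra library it was 29.9 CPM, against 9.31 CPM in unlabelled ones (3.22-fold [2.10 to 5.18]).

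The labelled share differed between clusters. In the Lmx1b library 69.1% of the nail-associated-like cluster was labelled but 0% of the Angpt2 and Fmo2 cluster, in which Gdf10 was highest. In the Pdgfra library 97.4% of the nail-associated-like cluster was labelled but 13.6% of the Dmp1 and Phex cluster, in which Bambi was highest. Both sides were therefore also weighted to the same mix of the clusters that held at least 10 cells of each kind. This keeps 3 of the 10 clusters in each library, so the weights and the cells change together, and their parts were not told apart. In the Lmx1b library these were the Igfbp2 and Gldn, the Mest and Ptn and the nail-associated-like clusters. There 6 of 34 members were at least 1.5-fold higher (against 6.23% of all genes), namely Bmp3, Bmp5, Inhbb, Chrdl1, Fst and Id1, and 3 were lower (against 9.39%), Gdf10, Tgfbr1 and Acvr2a. Fst was 1.70-fold on this basis, against 9.54-fold unweighted, Inhbb 1.92-fold, against 5.57-fold, and Bmp2 0.855-fold, against 2.80-fold. Gdf10 was 0.343-fold. In the Pdgfra library the clusters usable were the cycling-like, Bglap and osteoblast precursor-like ones, without the nail-associated-like cluster, which had 3 unlabelled cells. There 1 of 33 members (Bmp2) was higher (against 9.15%) and 6 were lower (against 8.85%), Gdf5, Inhba, Inhbb, Acvr2a, Nog and Smad7, with Fst at 0.859-fold and Gdf10 at 1.17-fold. Within the nail-associated-like cluster of the Lmx1b library, 29 labelled and 13 unlabelled cells could be compared. Of 34 members measured there, 8 were higher (23.5%, against 20.3% of all genes) and 4 lower (11.8%, against 16.9%), which is near the background. In the Igfbp2 and Gldn cluster 6 of 34 were higher (17.6%, against 13.7%) and 8 lower (23.5%, against 21.6%), and in the Mest and Ptn cluster 5 of 32 were higher (15.6%, against 10.9%) and 4 lower (12.5%, against 19.9%). In the nail-associated-like cluster Fst was at 1764 CPM (labelled) and 992 CPM (unlabelled) (1.78-fold [1.56 to 2.03]), Inhbb at 126 CPM (labelled) and 63.3 CPM (unlabelled) (1.99-fold [1.18 to 3.49]), Id1 at 180.2 CPM (labelled) and 96.6 CPM (unlabelled) (1.87-fold [1.22 to 2.93]) and Id3 at 926 CPM (labelled) and 519.5 CPM (unlabelled) (1.78-fold [1.49 to 2.15]). Gdf10 (0.195-fold [0.0550 to 0.574]) and Bambi (0.590-fold [0.426 to 0.817]) were lower in the labelled cells.

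**Figure D5:**
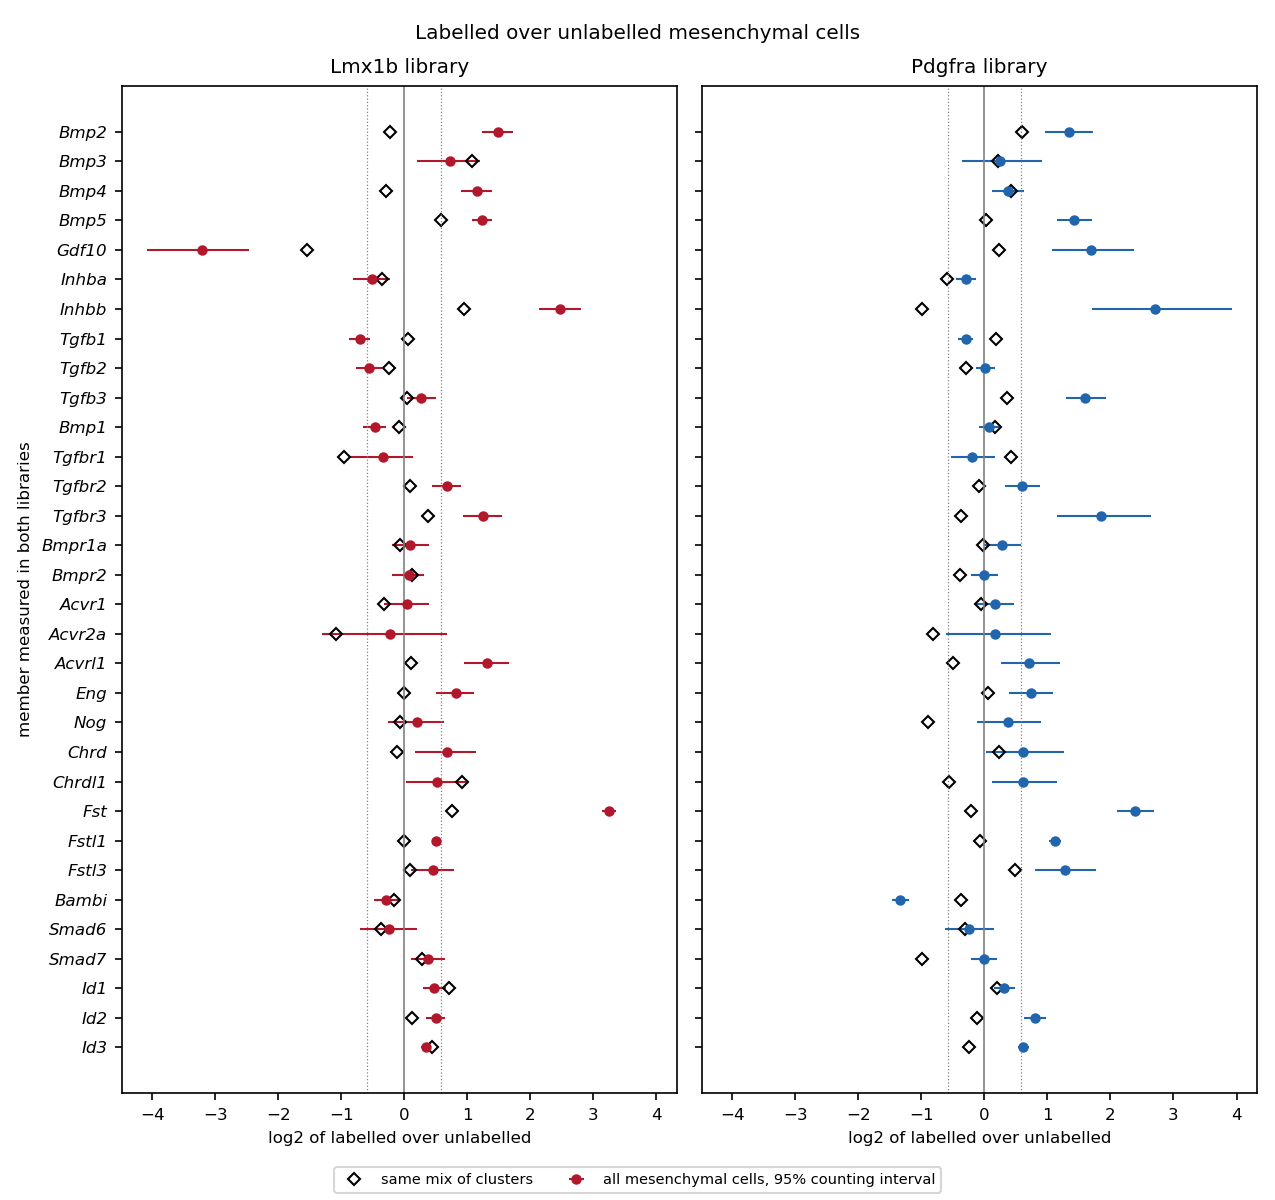
Log2 of labelled over unlabelled mesenchymal cells for the 32 members measured in both comparisons, Lmx1b library left and Pdgfra library right, with 95% counting intervals, open diamonds for the value with the same mix of clusters on both sides and dotted lines at 1.5-fold. Fst and Inhbb lie far to the right in both libraries, Gdf10 lies on opposite sides, and most diamonds lie closer to 0 than the points.

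Between the libraries, few members differed in the mesenchyme as a whole. Of 32 measured, 1 was at least 1.5-fold higher in the Lmx1b library (3.13%, against 2.68% of all genes), Gdf10 at 77.3 CPM (Lmx1b) and 27.3 CPM (Pdgfra) (2.83-fold [2.57 to 3.12]). Lower were 3 (9.38%, against 3.11%): Bmp2 at 40.1 CPM (Lmx1b) and 62.1 CPM (Pdgfra) (0.645-fold [0.594 to 0.701]), Bmp4 at 47.3 CPM (Lmx1b) and 74.8 CPM (Pdgfra) (0.632-fold [0.586 to 0.682]) and Fst at 107 CPM (Lmx1b) and 204 CPM (Pdgfra) (0.524-fold [0.499 to 0.550]). With the same mix of clusters in both libraries, 4 of 33 members were higher (against 2.09%), Bmp3, Bmp7, Gdf10 and Fstl1, and 0 lower (against 1.38%), with Fst at 1.04-fold, Bmp2 at 0.949-fold and Bmp4 at 0.840-fold. The nail-associated-like cluster, rich in these 3 genes, accounted for 4.26% (Lmx1b) and 19.7% (Pdgfra) of mesenchymal cells. Gdf10 was at 1.51-fold on this basis. As a description across classes, the profile of a member over the 8 shared classes had a median Pearson r of 0.929 between libraries (range 0.309 to 0.994, 35 members), and over the 9 shared mesenchymal clusters 0.899 (range -0.0553 to 0.991, 36 members). The classes share their libraries and their depth, so no test was made.

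Other genes of the pathway, taken from a list of 59 names of which 57 were found, were called in both directions. In labelled over unlabelled mesenchymal cells of the Lmx1b library, 8 of 34 measured were at least 1.5-fold higher and 5 lower (23.5% higher, against 12.7% of all genes, and 14.7% lower, against 10.5%), and in the Pdgfra library 9 of 32 higher and 4 lower (28.1% higher, against 21.1%, and 12.5% lower, against 6.09%). Msx2, a homeobox target of BMP signals, was 4.94-fold [Lmx1b, 3.58 to 6.71] and 1.80-fold [Pdgfra, 1.15 to 2.96], and Lefty1, an antagonist of Nodal, 3.09-fold [Lmx1b, 2.17 to 4.31] and 12.9-fold [Pdgfra, 4.37 to 62.9]. Ltbp2, a microfibril protein related to the TGF-beta binding proteins, was 2.35-fold [Lmx1b, 2.11 to 2.61] and 2.65-fold [Pdgfra, 2.23 to 3.16]. These 3 were higher in labelled cells of both libraries when all clusters were summed. Bmp8a, a BMP ligand, was lower in labelled cells of both (0.188-fold [Lmx1b, 0.0510 to 0.487] and 0.173-fold [Pdgfra, 0.129 to 0.232]), as was Bmper, a BMP-binding regulator (0.189-fold [Lmx1b, 0.0689 to 0.413] and 0.611-fold [Pdgfra, 0.389 to 0.998]). Sost, the osteocyte antagonist sclerostin, was lower in the Lmx1b library (0.264-fold [0.0539 to 0.782]). Msx2 and Lefty1 were highest in the nail-associated-like cluster of both libraries, of which 69% (Lmx1b) and 97.4% (Pdgfra) was labelled. Bmp8a was highest in the Dmp1 and Phex cluster of both, of which 4.05% (Lmx1b) and 13.6% (Pdgfra) was labelled. No value with the same mix of clusters is given for these genes, and the part of the mix in their folds was not tested. In the Lmx1b library Itgb8 (2.13-fold [1.24 to 3.44]), an integrin subunit, and Lrrc32 (1.92-fold [1.40 to 2.58]), both of which take part in activating or holding latent TGF-beta, were higher. In the Pdgfra library Nbl1 (3.29-fold [2.86 to 3.80]), a BMP antagonist, Rgma (2.61-fold [1.16 to 7.28]), a BMP co-receptor, Ctgf (2.34-fold [1.96 to 2.81]), a TGF-beta target, and Ltbp3 (2.26-fold [1.91 to 2.69]), a latent TGF-beta binding protein, were higher. Between the libraries, Bmper (2.86-fold [2.35 to 3.50]) and Ctgf (1.77-fold [1.68 to 1.86]) were higher and Msx2 (0.571-fold [0.479 to 0.681]) and Lefty1 (0.664-fold [0.559 to 0.790]) lower in the Lmx1b library, which makes 2 of 33 measured higher, against 2.68% of all genes, and 2 lower, against 3.11%.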

How the data were processed

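Single-cell transcriptomes of 2 mouse libraries were analysed, 1 per line, with no replicate. The authors deposited unnormalized UMI counts, which Cell Ranger 4.0.0 made per the file headers, on mm10 with a tdTomato sequence per the labels' protocols. Depth was 66867027 UMIs over 5991 barcodes (Lmx1b library) and 49084751 UMIs over 5032 barcodes (Pdgfra library).

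Barcodes under 500 genes or over 10% mitochondrial UMIs were dropped, 3198 of 5991 (Lmx1b) and 2658 of 5032 (Pdgfra). Over the mitochondrial limit were 2785 (Lmx1b) and 2219 (Pdgfra). Scrublet scores removed the top 0.8% per 1000 barcodes as doublets, since its own threshold marked 0 barcodes. Both libraries were clustered together on 2000 variable genes, without the members, other pathway genes, Xist, Y-linked genes and tdTomato, with 30 components, 15 neighbours and Leiden resolution 1.0 (mesenchymal cells: 20 components, 0.6). A cluster was named from 17 marker lists, and a cell needed 2 markers of its class. Summed counts were expressed as CPM. A gene was measured at 5 CPM and called at 1.5-fold, classes and clusters needed 20 cells, and clusters inside a class 10. No test was made, since cells are not replicates. Intervals are exact 95% Poisson or binomial ones. The members and lists were chosen with earlier results of these data known, and the 1600 CPM tdTomato limit comes from them. Values by class were given for members with the same leading class, 1.5-fold over the next, in both libraries, and by cluster for members 2-fold over the next cluster or 4-fold over the lowest in both. Values of endothelial, mural and cartilage clusters, and of single mesenchymal clusters between labels or libraries, were chosen after they were seen. Code was tested on simulated data. Python 3.11.15, numpy 2.4.6, scipy 1.17.1, pandas 2.3.3, scanpy 1.11.5 and matplotlib 3.10.9 were used. 1 other pathway gene that the naming rule selects is not reported here.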

Additional observations from a re-analysis of the deposited data

Results flagged for a closer look

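Gdf10 lay on opposite sides in the lines. In the Lmx1b library it was 0.108-fold in labelled over unlabelled mesenchymal cells (8.84 CPM labelled, 81.5 CPM unlabelled), and in the Pdgfra library 3.22-fold (29.9 CPM labelled, 9.31 CPM unlabelled). The difference between the libraries was not tested, since each line has 1 library. Gdf10 was highest in the Angpt2 and Fmo2 cluster, of which 0% (Lmx1b) and 71.4% (Pdgfra) was labelled. With the same mix of clusters on both sides it was 0.343-fold (Lmx1b) and 1.17-fold (Pdgfra).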

How the results depend on the processing

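No paired analysis was possible because each line has 1 library. Of 149 counts recomputed under alternatives, 126 stayed within 1.5 times the reported count. Shares of all genes were recomputed only for the same mix of clusters, so counts under the other alternatives have no background beside them. Of the named members' values, 549 kept their direction within counting error, 174 moved beyond it and 21 reversed. The members led by mesenchymal and by endothelial cells, and those led by the nail-associated-like cluster, stayed within 1.5 times under every alternative run. With 1000 genes and 5% mitochondrial UMIs, 8 members shared their leading cluster, 5 (Lmx1b) and 4 (Pdgfra) were lower in labelled cells, 2 were higher and 6 lower between libraries, Bmp5 over mural cells was -0.99 (log2, Lmx1b) and Chrdl1 in labelled cells -0.75 (Pdgfra). That filter left 443 (Lmx1b) and 109 (Pdgfra) mesenchymal cells, against 985 (Lmx1b) and 585 (Pdgfra) with the main limits. It left 19 cells of the nail-associated-like cluster in the Pdgfra library, so the count for that cluster was not made. Members lower in labelled cells of the Lmx1b library numbered 4 with 200 genes and 25%, with doublets kept, with a label at 3200 CPM and, chosen after seeing the data, with mixed-marker cells left out, which gave 2 higher between libraries. With a label at 800 CPM they numbered 1, and 2 in the Pdgfra library, where Chrd was -0.22. At 3200 CPM, 10 were higher in the Pdgfra library, Eng there was -0.19, and Bmp3 -0.39 in the Lmx1b library. A floor of 1 CPM gave 2 lower in labelled cells of the Pdgfra library and 6 between libraries, and means of each cell's CPM gave 2 and 5. Gating by markers without clusters gave 18 members with the same leading class and Gdf10 over cartilage at -0.40 (Pdgfra). With the same mix of clusters, 6 members were higher in labelled cells of the Lmx1b library, where Bmp2 was -0.23, Bmp4 -0.28, Chrd -0.12, Eng -0.0094 and Tgfb1 0.068. In the Pdgfra library 1 was higher and 6 lower, with Inhbb -0.99, Chrdl1 -0.56, Acvrl1 -0.51, Tgfbr3 -0.37, Id3 -0.25, Fst -0.22, Id2 -0.12, Tgfbr2 -0.083 and Fstl1 -0.068. Between libraries it gave 4 higher, 0 lower and Fst at 0.056. The same-mix comparison of labels keeps 3 of 10 clusters, so weights and cells change together. The cause of these changes was not tested. Low depth limits T and NK cells, neutrophils, the low-UMI cartilage cluster and the Krt42 cluster.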

Other observations

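Among cells with no class name, a cluster led by Krt42, Krt35 and Krt36, hard keratins of nail and hair cells, had 69 cells (Lmx1b library) at a median of 2062 UMIs and 181 cells (Pdgfra library) at 2688 UMIs. Bambi, the kinase-free pseudoreceptor, was at 313 CPM (Lmx1b, 266 to 366) and 606.5 CPM (Pdgfra, 571 to 643) there, beside 569 CPM (Lmx1b) and 507 CPM (Pdgfra) in cartilage. Bmp4 was at 31.9 CPM (Lmx1b, 18.2 to 51.8) and 74.9 CPM (Pdgfra, 62.9 to 88.5), and Bmp7 at 29.9 CPM (Lmx1b, 16.7 to 49.3) and 33.9 CPM (Pdgfra, 26 to 43.4). Bmp2 was at 12.0 CPM (Lmx1b, 4.39 to 26) and 55.7 CPM (Pdgfra, 45.4 to 67.7). Bmp2 and Bmp4 were thus lower in the Lmx1b library. Tgfb1, broad elsewhere, was at 23.9 CPM (Lmx1b, 12.4 to 41.8) and 42.6 CPM (Pdgfra, 33.7 to 53.2) in this cluster.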
